A study of Arabidopsis thaliana with 6 samples.

Results

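Cyclophilins and FKBPs are 2 families of peptidyl-prolyl cis-trans isomerases, and 42 of the 19955 genes in the deposited table carry a description that names one of them. The members were taken by text alone, from descriptions holding "cyclophilin", "peptidyl-prolyl cis-trans isomerase", "FK506" or "FKBP". Their transcripts were followed by RNA sequencing of untreated Arabidopsis thaliana seedlings of the ecotype Col-0, taken whole at an age of 7 days. The seedlings were mir163 mutants, from 3 libraries, and wild type (WT), also from 3 libraries, all grown at 22 °C with 16 h of light and 8 h of dark. The labels call the libraries biological replicates and do not say which lesion the mutant carries. The authors give 1 FPKM value per genotype (sequenced fragments normalised for transcript length and for library depth), so no spread between libraries can be stated for any gene and the depth behind each value is unknown.

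Peptidyl-prolyl isomerases speed the slow turn of the peptide bond before proline, a step that can limit protein folding. Cyclophilins are the receptors of cyclosporin A and FKBPs those of FK506 and rapamycin, and plants hold both families in the cytosol, the nucleus, the secretory pathway and the chloroplast, where many sit in the thylakoid lumen. Several carry extra domains and assist the chaperone HSP90, the assembly of photosynthetic complexes or RNA processing. A parvulin is an isomerase of a separate family.

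The label holds for most of the 42 genes. A list of 54 Arabidopsis cyclophilins, FKBPs and parvulins, written from knowledge of the families, contains 35 of them. Of the other 7, FIP37 is described as a protein that binds FKBP12 and as a core part of the m6A RNA methyltransferase, so it is a partner and not an isomerase. The table calls AT3G44280 and AT5G22280 isomerase G, and the names of AT2G33400 and AT5G03990 point to FK506 binding, while the RefSeq notes call these 4, and AT3G12345, unknown proteins. AT4G17070 is the last of these 7. AT1G26550, which the list holds as a parvulin, is described as FKBP-like, but its closest Arabidopsis match in the RefSeq notes is PIN1AT, a parvulin. The 42 genes matched RefSeq (TAIR10.1) by identifier, and 12 of them have a symbol there. Role groups follow the list and background knowledge of the families, and RefSeq notes on location differ for FKBP12, AT3G12340, AT3G55520 and FKBP15-2, which they place in the thylakoid lumen, and for ROC7, which they place in the chloroplast.

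The precursor transcript MIR163 (AT1G66725) had an FPKM of 0.0726 in mir163 and 20.5 in WT, with an unadjusted p of 0.180 in the authors' deposited table. PXMT1 (AT1G66700), a methyltransferase whose mRNA miR163 cleaves, stood at 47.6 in mir163 and 1.32 in WT. Leaf markers were abundant in both genotypes, with RBCS1A at 15342 in mir163 and 18310 in WT and LHCB1.2 (CAB3) at 2267 in mir163 and 3233 in WT. The root markers PRP3 and CASP1 were at 84.6 and 50.2 in mir163, against 84.8 and 56.6 in WT. The seed markers CRA1 and EM6 were at 7.71 and 2.60 in mir163 and 1.43 and 1.17 in WT, low beside the leaf markers and higher in mir163 by 5.38-fold and 2.23-fold, with p-values of 0.00125 and 0.141 in the authors' deposited table. In whole seedlings, fewer cells of a type and less RNA per cell cannot be told apart.

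The sequence of miR163 was set beside the transcripts of the members first, because a microRNA acts by pairing with its target transcripts. The mature miR163 has 24 bases and lies on the plus strand of chromosome 1 in TAIR10.1, chr1:24884359-24884382. Its seed, bases 2 to 8, is in capitals. The site of PXMT1 (chr1:24874307-24874329, minus strand, coding sequence) is shown for comparison, with the bases that pair with the seed in capitals. The closest stretch in any member is in the coding sequence of the cyclophilin AT4G32420 (chr4:15647684-15647706, minus strand), which has no seed match.

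miR163: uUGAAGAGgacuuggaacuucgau
PXMT1 site: aucgaguuccaagucCUCUUCAa
AT4G32420 stretch: aucaagaucaaagucauauucaa

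The PXMT1 site differs from a perfect complement by 1 mismatch or gap, and the AT4G32420 stretch by 5. No member had a stretch within 4 differences, which 7 of 19285 table genes did (0.0363%). Within 5 differences there was 1 member, against 91 table genes (0.472%). A plain 7-base match to the seed occurred in 7 of 42 members (16.7%) and in 5249 of 19284 table genes (27.2%). AT2G21130, the member with the largest difference between genotypes, had no seed match and no stretch within 8 differences. AT4G32420 itself was at an FPKM of 20.7 in mir163 and 20.2 in WT.

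AT2G21130 had the largest difference between genotypes among the 42, AT1G73655 was the other member past 1.5-fold, and the remaining 40 lay within 1.5-fold of parity. A value higher in mir163 was found for 26 of 42 members, and 51.3% of all 19264 genes with an FPKM of at least 1 in a genotype had a higher value. When both genotypes were brought to the same FPKM sum, a scaling chosen after the sums were seen, 32 members were higher. The median change was then 0.12 for all genes and 0.17 for the members, in log2(FPKM + 1). The share of all genes higher after that scaling was not counted. As deposited, the median change of the members was 0.04 in log2(FPKM + 1), beside 0.0064 for all genes tested. All 42 members passed that minimum in both genotypes, the lowest values being 5.57 in mir163 and 3.06 in WT. The 40 members within 1.5-fold were 95.2% of the members, against 93.1% of all genes tested. Within 1.1-fold were 16 members (38.1%), against 49.7%, and within a ratio of 5 to 4 there were 31 (73.8%), against 80.6%. Past 1.5-fold, 2 members were higher in mir163 and 0 were lower, where 3.55% of all genes were higher and 3.33% lower by that much. From the authors' deposited table, 1 member was higher at an unadjusted p under 0.05 and 0 were lower, with 0.67% of all genes higher and 0.327% lower. After Benjamini-Hochberg adjustment over all genes tested, 0% of genes and 0 members passed 0.05.

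**Figure D1:**
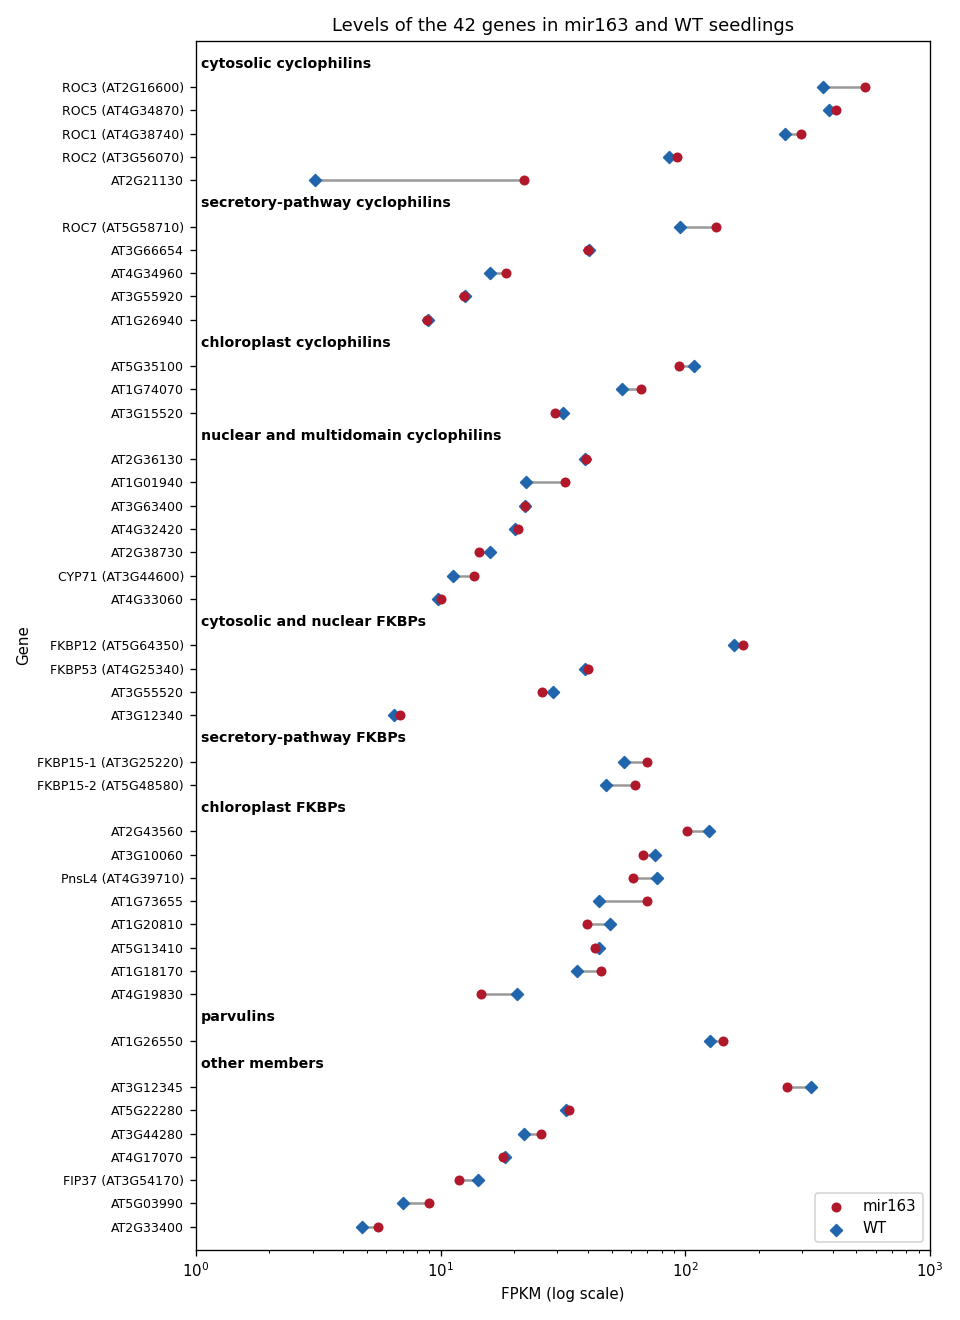
FPKM of each of the 42 genes (x axis, log scale) in mir163 (circles) and WT (diamonds), 1 value per genotype, by role group and ordered by mean level. The symbols lie close together for most genes and far apart for AT2G21130, at 21.9 in mir163 and 3.06 in WT.

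Cytosolic cyclophilins are small proteins of a single isomerase domain, among them the ROC (rotamase cyclophilin) genes ROC3 and ROC5, the most abundant of the 42. All 5 had higher values in mir163, with ratios of mir163 to WT between 1.06 and 7.16, where 51.3% of all genes tested were higher. ROC3 (AT2G16600) was the highest member in mir163, at an FPKM of 540.5, against 366 in WT. ROC5 (AT4G34870), the highest in WT, was at 412 in mir163 and 387 in WT. ROC1 (AT4G38740) was at 297 in mir163 and 256 in WT, and ROC2 (AT3G56070) at 92.1 in mir163 and 85.5 in WT. The ratio was 1.48 for ROC3 and 1.06 to 1.16 for the other cytosolic ROC genes, whose unadjusted p-values in the authors' deposited table were between 0.633 and 0.832. For ROC3 the authors' deposited table gives a p of 0.232.

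AT2G21130, the fifth cytosolic cyclophilin, stood at an FPKM of 21.9 in mir163 and 3.06 in WT, a 7.16-fold higher value. In the authors' deposited table its log2 fold change is 2.84 and its p is 5e-05, the lowest value that occurs, which 11 of the genes tested share. Adjusted over all genes tested, p was 0.0876, so the gene did not pass 0.05. At this lowest p, 20 genes would have to share it for an adjusted value of 0.05. By ratio, AT2G21130 ranked 32 of 19264. Both seed markers were also higher in mir163, CRA1 by 5.38-fold and EM6 by 2.23-fold, and their part in the AT2G21130 value was not tested. It was the least abundant cytosolic cyclophilin in both genotypes, and its share of their summed FPKM was 1.60% in mir163 and 0.278% in WT. The sum itself was 1364 in mir163 and 1097 in WT, and ROC3 accounted for 175 FPKM of the difference and AT2G21130 for 18.8.

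**Figure D2:**
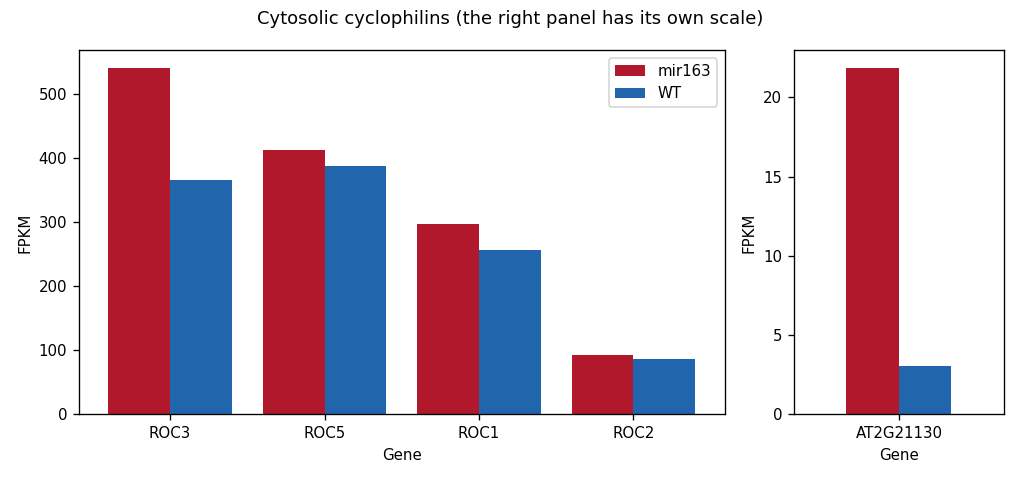
FPKM of the 5 cytosolic cyclophilins in mir163 (left bar of each pair) and WT (right bar), 1 value per genotype. AT2G21130 has a panel with its own scale, where mir163 stands at 21.9 and WT at 3.06, while the ROC genes range from 92.1 to 540.5 in mir163 and from 85.5 to 387 in WT.

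The cytosolic cyclophilins also share a gene structure that the choice of members did not use. Each of the 5 has its coding sequence in 1 uninterrupted segment, as only 6 of the 42 members do, the sixth being AT3G12345. Their proteins have 172 to 176 residues, beside 108 to 837 over all members. AT2G21130 lies on the minus strand at chr2:9055398-9056481, encodes 174 residues, and is closest to ROC1, with 90.2% of residues and 83.9% of coding bases identical. Against ROC3, ROC5 and ROC2 its residues were 81.0%, 77.0% and 72.3% identical. The longest run of identical bases between the transcripts of AT2G21130 and ROC1 was 23. With ROC5 it was also 23, with ROC3 18 and with ROC2 12. The sources used here do not say how reads were assigned among these paralogs, so their separate values are uncertain to that extent.

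No annotated gene overlaps AT2G21130. The nearest gene on each side had a slightly lower value in mir163. AT2G21120 was at 25.1 in mir163 and 31.1 in WT, and PRP2 (AT2G21140), a proline-rich protein gene, at 105 in mir163 and 119 in WT. XCT (AT2G21150), the next gene beyond PRP2, was at 26.0 in mir163 and 25.8 in WT. Of the 7 among its 10 nearest neighbours that are in the table, AT2G21090 had the highest ratio, 1.58, at 4.11 in mir163 and 2.61 in WT.

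The promoter of AT2G21130 is printed beside that of its closest paralog, ROC1, as the 250 bases before the annotated start, read 5′ to 3′ from TAIR10.1. The windows are chr2:9056482-9056731 and chr4:18084631-18084880, both on the minus strand. In the first, capitals mark an 11-base run that returns 3 times, each copy starting 52 bases after the one before. In the ROC1 window no such run was found.

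AT2G21130 promoter: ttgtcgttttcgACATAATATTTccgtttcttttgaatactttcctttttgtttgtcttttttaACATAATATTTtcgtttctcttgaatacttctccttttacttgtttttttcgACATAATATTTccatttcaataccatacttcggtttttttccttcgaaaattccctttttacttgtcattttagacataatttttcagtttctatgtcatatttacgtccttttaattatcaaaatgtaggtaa
ROC1 promoter: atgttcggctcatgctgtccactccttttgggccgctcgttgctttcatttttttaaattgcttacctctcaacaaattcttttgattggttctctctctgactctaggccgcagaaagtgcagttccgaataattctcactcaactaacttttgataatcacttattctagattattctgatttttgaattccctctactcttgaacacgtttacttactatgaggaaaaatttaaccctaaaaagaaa

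The run is ACATAATATTT, and its copies begin 238, 186 and 134 bases before the start of the gene. Runs of 11 bases that return at least 3 times without overlap, and hold more than 2 kinds of base, occur in 135 of 27561 promoters of this length (0.490%). The length of 11 was set after the promoter had been read. Among the members, FKBP53 is the only other gene with one, GGGCTTCATTG in 3 adjoining copies, and its level was 40.0 in mir163 and 39.0 in WT.

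Known elements were also sought on both strands of the 250-base promoters, and the AT2G21130 window held none of the 4. The evening element was searched by the letters AAATATCT and not by its longer form AAAATATCT. These letters were found in 4 of 42 members (9.52%) and in 4.77% of 27561 promoters. These 4 were AT1G26940, AT2G43560, AT3G44280 and AT5G35100, and their ratios of mir163 to WT were 0.984, 0.815, 1.17 and 0.869. Of them, only AT1G26940 and AT3G44280 also hold the longer form, whose share over all promoters was not counted. The CCA1-binding site AAAAATCT was found in 2 members, AT3G12340 and FKBP53, and in 6.69% of promoters. The G-box CACGTG was found in 1 member, ROC5, and in 6.46% of promoters. The heat shock element, searched as GAA, 2 bases, TTC, 2 bases, GAA, was found in 0 members and 0.392% of promoters. As searched, the evening element and the CCA1-binding site differ by 1 letter, and no member other than these was found to hold any of the 4.

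Secretory-pathway cyclophilins fold proteins on their way through the endoplasmic reticulum and Golgi. Of the 5 members, 2 had a higher value in mir163, beside 51.3% of all genes tested. ROC7 (AT5G58710) was at an FPKM of 133 in mir163 and 95.2 in WT, a ratio of 1.40 with a p of 0.368 in the authors' deposited table. AT4G34960 was at 18.5 in mir163 and 16.0 in WT. The other 3 differed by under 2% and changed side when both genotypes were brought to the same FPKM sum. Of these, AT3G66654, which the RefSeq notes place at the Golgi, was at 40.1 in mir163 and 40.5 in WT. AT3G55920 was at 12.5 in mir163 and 12.6 in WT, and AT1G26940 at 8.78 in mir163 and 8.92 in WT.

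The secretory-pathway FKBPs, FKBP15-1 (AT3G25220) and FKBP15-2 (AT5G48580), both had higher values in mir163, as had 51.3% of all genes tested. FKBP15-1 was at an FPKM of 69.7 in mir163 and 56.0 in WT, and FKBP15-2 at 62.6 in mir163 and 47.4 in WT. Their ratios were 1.24 and 1.32, with p-values of 0.387 and 0.473 in the authors' deposited table. FKBP15-2 overlaps a gene on the other strand by 433 bases, and without stated strand in the counting the reads of overlapping genes cannot be told apart. An overlap with an annotated gene was found for 15 members, for 13 of them with a gene on the other strand.

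Chloroplast FKBPs are for the most part proteins of the thylakoid with few known targets. Of 8 members, 6 were lower in mir163, with a median change of -0.23 in log2(FPKM + 1), which was -0.10 after scaling to the same FPKM sum. Among all 19264 genes tested, 9377 were lower, and the median change of all was 0.0064, or 0.12 after that scaling. AT2G43560 was the most abundant of the 8, at an FPKM of 102 in mir163 and 125 in WT. AT3G10060 was at 67.3 in mir163 and 75.4 in WT. PnsL4 (AT4G39710, also named FKBP16-2), a lumenal subunit of the photosynthetic NADH dehydrogenase-like complex, was at 61.1 in mir163 and 76.7 in WT. The lowest ratio of all 42 members, 0.714, belonged to AT4G19830, at 14.7 in mir163 and 20.5 in WT, with a p of 0.229 in the authors' deposited table. AT4G19830 overlaps a gene on the other strand by 284 bases, so its value has the same limit as that of FKBP15-2. AT1G20810 was at 39.7 in mir163 and 49.2 in WT, and AT5G13410, which changed side under that scaling, at 42.9 in mir163 and 44.3 in WT.

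Against the other chloroplast FKBPs, AT1G73655 and AT1G18170 had higher values in mir163. AT1G73655 stood at an FPKM of 70.1 in mir163 and 44.4 in WT, a ratio of 1.58 and the second member past 1.5-fold, with a p of 0.141 in the authors' deposited table. AT1G18170 was at 45.3 in mir163 and 36.2 in WT. The RefSeq notes name these 2 genes as each other's closest match in Arabidopsis.

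Chloroplast cyclophilins gave 1 higher and 2 lower values. AT5G35100, in the thylakoid lumen by its RefSeq note, was at an FPKM of 94.6 in mir163 and 109 in WT. AT3G15520, whose closest RefSeq match is the lumenal CYP38, was at 29.3 in mir163 and 31.8 in WT and changed side after scaling to the same FPKM sum. AT1G74070 was at 66.0 in mir163 and 55.2 in WT. Over both families, 8 of 11 chloroplast members and 8 of 31 others were lower in mir163, beside 9377 of all 19264 genes tested. After scaling to the same FPKM sum 6 of 11 and 4 of 31 were, and the share of all genes was not counted. The split depends on the role groups, because RefSeq notes place some of the others in the chloroplast or thylakoid lumen. Of those, FKBP12, AT3G12340, FKBP15-2 and ROC7 were higher in mir163, and AT3G55520 and AT3G12345 were lower. That the chloroplast members differ from the others was not tested. The leaf markers RBCS1A and LHCB1.2 were lower in mir163 too, by ratios of 0.838 and 0.701, and their part in the chloroplast values was not tested.

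**Figure D3:**
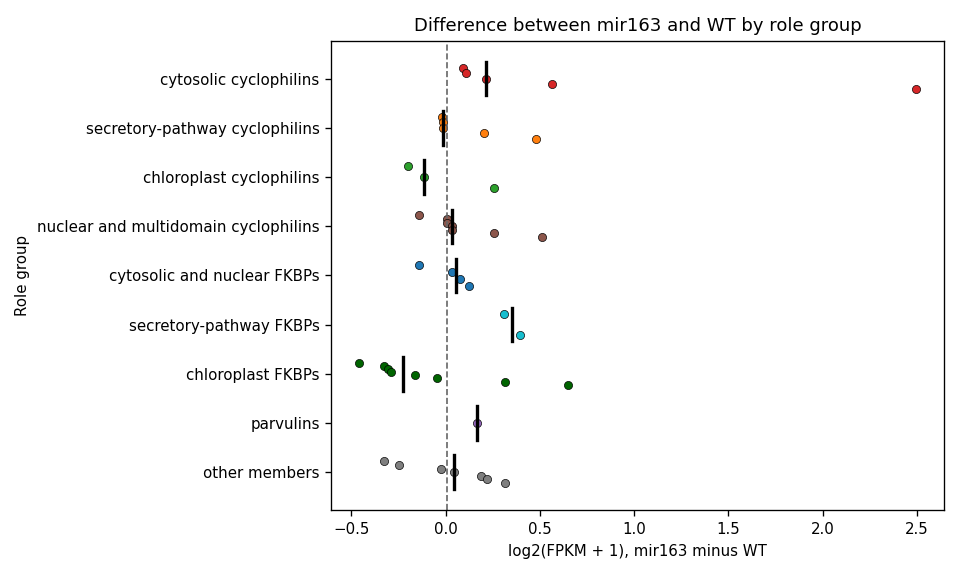
Difference in log2(FPKM + 1), mir163 minus WT (x axis), for each of the 42 genes (points) by role group, with group medians as black bars and the median of all genes tested, 0.0064, as a dashed line. The medians run from -0.23 in chloroplast FKBPs to 0.35 in secretory-pathway FKBPs, and AT2G21130 lies alone at the right.

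Nuclear and multidomain cyclophilins join the isomerase domain to others or act with the spliceosome and chromatin. Of 7 members, 6 had higher values in mir163, 4 of them by under 3%, where 51.3% of all genes tested were higher. AT2G36130 was the most abundant, at an FPKM of 39.2 in mir163 and 38.9 in WT. AT1G01940 had the highest ratio, 1.44, at 32.1 in mir163 and 22.3 in WT, with a p of 0.175 in the authors' deposited table. CYP71 (AT3G44600), a WD40-domain cyclophilin that binds histone H3, was at 13.6 in mir163 and 11.2 in WT. AT3G63400 was at 22.2 in mir163 and 22.1 in WT. AT4G33060, whose RefSeq synonym is CYP57, was at 10.0 in mir163 and 9.75 in WT. The lower value belonged to AT2G38730, at 14.4 in mir163 and 16.0 in WT.

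Cytosolic and nuclear FKBPs differed by less than 11% in either direction. FKBP12 (AT5G64350), whose yeast and mammalian counterparts carry rapamycin to the kinase TOR, was at an FPKM of 173 in mir163 and 159 in WT. FKBP53 (AT4G25340), a histone chaperone that represses ribosomal DNA, was at 40.0 in mir163 and 39.0 in WT. AT3G12340, its closest relative among the members, was at 6.86 in mir163 and 6.47 in WT. AT3G55520 was lower, at 26.0 in mir163 and 28.8 in WT. FIP37 (AT3G54170), the FKBP12 partner, was at 11.9 in mir163 and 14.3 in WT.

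The remaining members ranged in ratio from 0.797 to 1.28. AT3G12345, called FKBP-type in the table, placed in the chloroplast by its RefSeq note and not counted among the chloroplast members above, was the most abundant of them, at an FPKM of 260 in mir163 and 326 in WT. AT5G22280 was at 33.4 in mir163 and 32.4 in WT, and its relative AT3G44280 at 25.8 in mir163 and 22.0 in WT. AT4G17070 was at 18.0 in mir163 and 18.3 in WT and was 1 of 6 members that changed side after scaling to the same FPKM sum. At the low end, AT5G03990 was at 8.98 in mir163 and 7.01 in WT, and AT2G33400 at 5.57 in mir163 and 4.78 in WT. The parvulin AT1G26550 was at 142 in mir163 and 127 in WT.

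**Figure D4:**
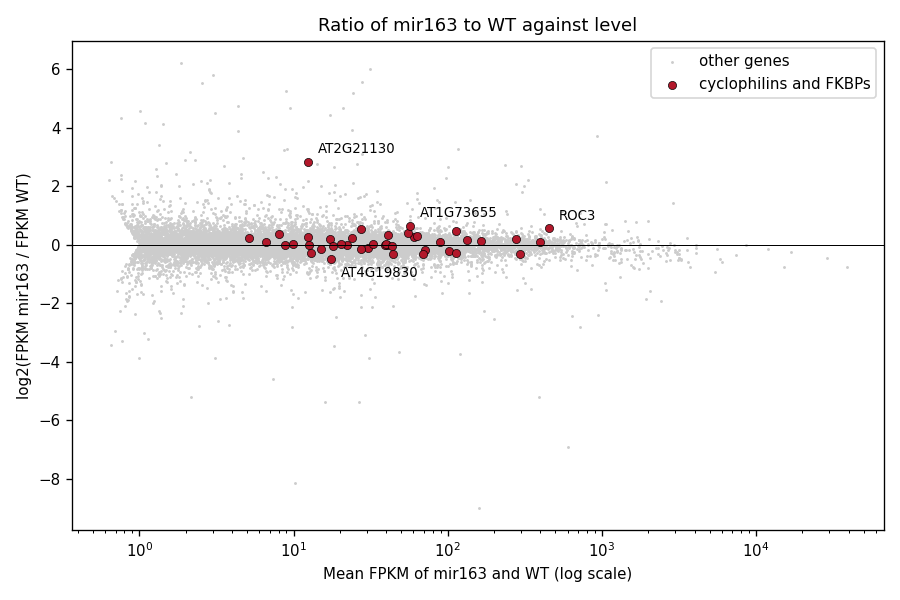
Log2 ratio of mir163 to WT FPKM (y axis) against mean FPKM (x axis, log scale). Shown are genes with an FPKM of at least 1 in a genotype, the 42 members in red and the others in grey. Genes listed at 0 in a genotype are left out, AT2G21130 lies at 2.84, and the other members lie between -0.49 (AT4G19830) and 0.66 (AT1G73655).

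Proteins that work with these isomerases were listed as 30 partner genes, all of them in the table. Higher values in mir163 were found for 18, and for 27 after scaling to the same FPKM sum. Their ratios were between 0.874 and 1.41, and 0 passed 1.5-fold, which HSP90.1 passed after that scaling (1.55), or an unadjusted p of 0.05 in the authors' deposited table. Past 1.5-fold were 6.87% of all genes tested, or 7.65% after that scaling. At that p, 0.67% of all genes tested were higher and 0.327% lower. The HSP90 list holds 4 HSP90 genes, 7 co-chaperones, the client AGO1 and the heat shock factor HSFA2, and had 11 of 13 higher, with a median change of 0.19 in log2(FPKM + 1). Of the HSP90 genes and co-chaperones alone, 10 of 11 were higher. After scaling to the same FPKM sum these counts were 12 of 13 and 11 of 11. That scaling raises every mir163 value relative to WT, so no count of higher values can fall under it. As deposited, 51.3% of all genes tested were higher in mir163, and the share after scaling was not counted. The median change of all genes tested after scaling was 0.12 in log2(FPKM + 1). HSP81-2 was at an FPKM of 377 in mir163 and 291 in WT, and HSP81-3, also an HSP90, at 316 in mir163 and 259 in WT. AGO1, the microRNA slicer loaded with the help of HSP90, was at 67.8 in mir163 and 77.6 in WT.

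Thylakoid partners gave 3 higher and 3 lower values, with 5 of 6 higher after scaling to the same FPKM sum, which raises every mir163 value. Among all genes tested, 51.3% were higher as deposited, and the share after scaling was not counted. The median change of all genes tested after scaling was 0.12 in log2(FPKM + 1). The Rieske protein PETC was at an FPKM of 986 in mir163 and 1069 in WT, and the photosystem II assembly factor HCF136 at 243 in mir163 and 262 in WT. Redox and cysteine synthesis partners had 3 of 5 higher, or 5 of 5 after that scaling, with the peroxiredoxin AT3G11630 at 755 in mir163 and 696 in WT and the cysteine synthase OASA1 at 247 in mir163 and 226 in WT. The TOR complex had 0 of 3 higher, or 2 of 3 (TOR and LST8-1) after that scaling, with LST8-1 at 38.1 in mir163 and 39.7 in WT and RAPTOR1 at 28.1 in mir163 and 31.7 in WT. The auxin transporters that bind an FKBP had 1 of 3 higher, or 3 of 3 after that scaling. Among them, ABCB19 was at 37.1 in both genotypes and ABCB1 at 33.3 in mir163 and 31.0 in WT.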

How the data were processed

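Libraries of whole seedlings, 3 of mir163 and 3 of WT, appear in the table as 1 column per genotype. The deposited values are FPKM, and beside them stand the authors' log2 fold change (mir163 over WT) and p-value without adjustment. Trizol extraction and an NEBNext Ultra RNA kit are named in the labels' protocols. Tools listed in the submitters' processing notes, without their roles, are TopHat, Cufflinks and bcl2fastq 2.17.1.14, with the build TAIR10. The sources used here do not say how libraries were combined, which test gave the p-values or whether strand was counted.

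Genes with an FPKM of at least 1 in a genotype (19264, leaving out 691) were tested by Benjamini-Hochberg adjustment of the authors' p-values at 0.05. Ratios are plain FPKM ratios, and medians are of log2(FPKM + 1). The members and lists were chosen with earlier results of these data known. By the rule for named genes every member is accounted for, so all 42 are given with their values. From each partner list the 2 most abundant are named, with AGO1 added after its value was seen. Sequences were read from RefSeq TAIR10.1, and matches to miR163 counted mismatches and single-base gaps in all annotated mRNA transcripts. Python 3.11.15, numpy 2.4.6, pandas 2.3.3, biopython 1.88, edlib 1.3.9.post1 and matplotlib 3.10.9 were used, and the adjustment was tested on simulated data. Alternatives were other filters, pseudocounts, scalings, folds and a family list.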

Additional observations from a re-analysis of the deposited data

How the results depend on the processing

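No paired analysis was possible because each genotype has a single FPKM column, and leaving out each library was not run for the same reason. Equal-sum scaling, of members, partners and other family genes, and leaving out AT2G21130 were chosen after seeing the data. With no filter or a minimum FPKM of 5, Benjamini-Hochberg adjustment called 0 genes, as with the minimum of 1, where 192 had an unadjusted p under 0.05. Past 2-fold there was 1 member, against 2.35% of all genes tested. Past a ratio of 5 to 4 there were 11, against 19.4%. After equal-sum scaling 5 were past 1.5-fold, against 7.65%. Median-ratio scaling, quantile normalization and the pseudocounts turned no median of the members or role groups. Equal-sum scaling brought the median of all genes to 0.12 and made 32 members higher in mir163. Under it the medians in log2(FPKM + 1) were 0.17 for the members, 0.35 for cytosolic, 0.11 for secretory-pathway, 0.014 for chloroplast and 0.15 for nuclear and multidomain cyclophilins. They were 0.18 for cytosolic and nuclear, 0.48 for secretory-pathway and -0.096 for chloroplast FKBPs, 0.30 for the parvulin and 0.17 for the other members. The secretory-pathway and chloroplast cyclophilins changed sign, from -0.013 and -0.11. A median was counted as moved past 0.1 on the log2 scale, and the cause of these shifts beyond the scaling itself was not tested. Depth is unknown, so no interval can be given for any value.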

Other observations

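Beside the 42 members, the family list holds 18 genes that are in the table under a blank description or one without the words of the rule, and these 18 can be set beside the members. A higher value in mir163 was found for 10 of them, or 15 after scaling to the same FPKM sum, which raised the median change of all genes to 0.12. Among all 19264 genes tested, 9887 were higher and 9377 lower as deposited, and the shares after scaling were not counted. As deposited, the median change of the 18 was 0.04 in log2(FPKM + 1), the same to 2 decimals as in the members. ROC4 (AT3G62030), the cyclophilin of the chloroplast stroma, was the most abundant, at an FPKM of 386 in mir163 and 362 in WT. Of the 3 cyclophilins and 3 FKBPs of the chloroplast among the 18, 5 had a lower value in mir163, or 2 after that scaling. Of these, Pnsl5 (AT5G13120) was at 144 in mir163 and 157 in WT, CYP38 (AT3G01480), which acts in photosystem II assembly, at 128 in mir163 and 139 in WT, and FKBP13 (AT5G45680) at 66.8 in mir163 and 68.6 in WT, and all 3 changed side under that scaling. SQN (AT2G15790), the cyclophilin that helps load AGO1, was at 11.5 in mir163 and 12.1 in WT, and changed side as well.

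Of the 5 cytosolic and nuclear FKBPs among the 18, 4 had a higher value in mir163, with and without that scaling, and the fifth, AT5G05420, a lower one. ROF1 (AT3G25230) was at an FPKM of 141 in mir163 and 118 in WT, and ROF2 (AT5G48570), which is induced by heat, at 116 in mir163 and 79.6 in WT. PAS1 (AT3G54010) was at 19.0 in mir163 and 18.6 in WT, and TWD1 (AT3G21640), which binds auxin transporters, at 10.3 in mir163 and 9.44 in WT. As deposited, only AT5G05420 passed 1.5-fold among the 18, while ROF2 also passed it after that scaling (1.60). Past 1.5-fold were 6.87% of all genes tested, or 7.65% after that scaling. AT5G05420 was at 1.43 in mir163 and 5.21 in WT. In the authors' deposited table its p is 0.0474, and adjusted over all genes tested it was 0.9996.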
